A study of Mus musculus with 9 samples.

Results

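The genes described here encode the amino acid transporters of the solute carrier families Slc1, Slc3, Slc6, Slc7, Slc36, Slc38 and Slc43, apart from Slc38a4. A transcript cluster, the array's unit for 1 transcribed locus, was taken as a member where an entry of its Gene Symbol annotation belonged to these families. This gave 61 clusters of 59 genes, out of 39601 clusters with at least 1 gene symbol and 65956 transcript clusters in all. Slc1a2 and Slc6a9 each had 2 clusters, and the cluster with the higher mean over the 9 arrays stands for the gene.

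The 9 arrays fall into 3 groups of 3 mouse samples. The first group, written mESC, is purchased embryonic stem cells, which were not sorted. The second, written embryo, is living GFP+ cells collected by cell sorting at E14.5 from the incisor epithelium of embryos that carry Sox2-GFP. The third, written adult, is living GFP+ cells sorted by the same reporter from the labial cervical loop, the epithelial stem cell site of the ever-growing incisor, of Sox2-GFP mice at postnatal day 30. Each dental sample pooled cells of several animals, and no knockout or drug separates the groups. The labels number 3 biological replicates of mESC without naming cultures. The spread behind mESC p-values may therefore be technical, and those p-values reach no further than these samples. All 3 groups were fitted together, so the mESC spread also enters the embryo against adult p-values.

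Cells take up amino acids through carriers that differ in substrate, in the ion that drives them and in direction. The light chains of the Slc7 family reach the cell surface only when bound to a glycoprotein heavy chain, Slc3a2 (CD98) or Slc3a1 (rBAT), and most of them exchange one amino acid for another. The cationic transporters of Slc7 work without a heavy chain, Slc1 and Slc38 proteins use the sodium gradient, and many Slc6 proteins carry neurotransmitters or osmolytes in place of protein building blocks. When amino acids run short, the transcription factor Atf4 is known to raise the transcription of several of these genes together with enzymes of amino acid synthesis.

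Signals are log2 values, so 1 unit is a 2-fold difference. A gene was called in a comparison when its adjusted p from limma was under 0.05 and its log2 difference was at least 1 in size. Between embryo and adult cells, 6 transporter genes were higher in embryo (Slc7a1, Slc38a1, Slc7a3, Slc7a6, Slc1a5 and Slc1a4), where 3.59% of all clusters were called higher, and 4 were lower (Slc7a7, Slc7a8, Slc1a1 and Slc38a3), where 2.83% of all clusters were called lower. Of all clusters called there, 55.9% were higher in embryo, and under quantile normalisation 46%. Against mESC, embryo cells had 5 transporter genes higher (background 4.87%) and 4 lower (background 6.09%). Adult cells had 6 higher (background 6.86%) and 8 lower (background 10.3%) than mESC. As shares of the 59 genes these are 10.2% and 6.78% for embryo against adult, 8.47% and 6.78% for embryo against mESC, and 10.2% and 13.6% for adult against mESC. All but the first of these shares lie within 4 percentage points of the background. The median difference over the 59 genes was within 0.02 of 0 in all 3 comparisons (-0.0033, -0.0033 and 0.0133, against 0.0067, -0.0733 and -0.07 over all clusters). In the authors' deposited table for embryo against adult, 2 of the 10 called genes, Slc7a7 and Slc7a8, had an adjusted p under 0.05, and the other 8 had 0.0599 to 0.338 with fold changes in the same direction. The 3 comparisons share groups, so the lists of called genes are not independent of one another.

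Many members were dim. The 5222 negative-control probe sets had a median log2 signal of 4.84, and 27 of the 59 genes had every group mean at or under it. Another 29 genes lay above it in all 3 groups and 3 genes (Slc1a1, Slc1a3 and Slc7a11) in 1 or 2 groups. Of the 32 genes above it somewhere, 13 had their highest mean in adult, 11 in embryo and 8 in mESC. The controls themselves spread widely, with a 95th percentile of 8.79, and 44 of the 59 genes had no group mean above that. Among the 44 are the called genes Slc1a1, Slc1a3, Slc1a4, Slc7a2 and Slc7a11, so a mean above the control median is not clear of background. The 27 dim genes include the rBAT chain Slc3a1 and its partner Slc7a9, the glutamate transporter Slc1a2, and the transporters of GABA (Slc6a11, Slc6a13), noradrenaline (Slc6a2), dopamine (Slc6a3) and serotonin (Slc6a4). None of the 27 was called by limma in any of the 3 comparisons, and 2, 4 and 3 of them had an unadjusted p under 0.05 for embryo against adult, embryo against mESC and adult against mESC. Where a group mean is near the control level, the difference understates the change.

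**Figure D1:**
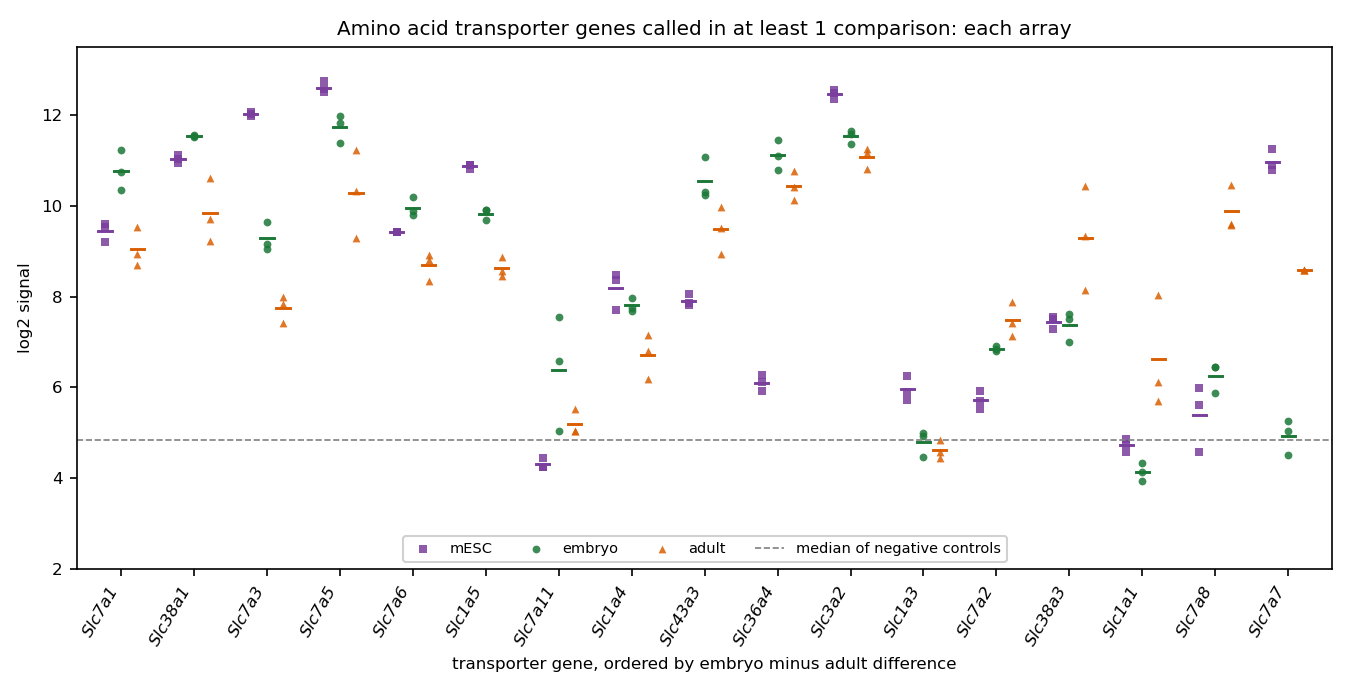
Log2 signal on each array for the transporter genes called in at least 1 comparison, ordered by the embryo minus adult difference. Points are arrays (mESC squares, embryo circles, adult triangles), short bars are group means of 3 arrays, and the dashed line is the negative-control median of 4.84. Slc7a7 and Slc7a8 stand at the right with adult arrays above all embryo arrays, and Slc36a4 and Slc43a3 have both dental groups above mESC.

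Start-site sequences are shown for the members that hold the motif of the amino acid response, because genes of that response are compared with the transporters further on. The motif searched was TGATGNAA on both strands, the core of the element that Atf4 binds together with C/EBP proteins, in the RefSeq windows of assembly GRCm38.p6 that run from 250 bases before to 50 after each start site. It occurred in 1304 of 32851 windows of that length (3.97%), and 23 windows (0.07%) held it 2 or more times. Windows were found for 41 of the 59 genes, and 3 of these genes had the motif, in 4 of 60 windows. The sequences below read 5′ to 3′ on the gene's strand, and capitals mark the motif or its reverse complement.
Slc7a11, chr3:50443564-50443863, minus strand: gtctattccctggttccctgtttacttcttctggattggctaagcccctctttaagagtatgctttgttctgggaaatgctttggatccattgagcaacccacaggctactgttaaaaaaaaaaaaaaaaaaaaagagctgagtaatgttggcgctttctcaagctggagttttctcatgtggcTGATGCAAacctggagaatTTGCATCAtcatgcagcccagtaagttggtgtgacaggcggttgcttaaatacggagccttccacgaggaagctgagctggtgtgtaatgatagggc
Slc7a7, chr14:54417895-54418194, minus strand: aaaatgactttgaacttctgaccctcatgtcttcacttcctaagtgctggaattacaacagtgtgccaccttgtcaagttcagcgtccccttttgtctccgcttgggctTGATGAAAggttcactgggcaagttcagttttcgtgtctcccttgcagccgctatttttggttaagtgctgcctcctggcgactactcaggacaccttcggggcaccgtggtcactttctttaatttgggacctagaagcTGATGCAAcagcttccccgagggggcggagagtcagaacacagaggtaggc
Slc1a4, chr11:20332664-20332963, minus strand: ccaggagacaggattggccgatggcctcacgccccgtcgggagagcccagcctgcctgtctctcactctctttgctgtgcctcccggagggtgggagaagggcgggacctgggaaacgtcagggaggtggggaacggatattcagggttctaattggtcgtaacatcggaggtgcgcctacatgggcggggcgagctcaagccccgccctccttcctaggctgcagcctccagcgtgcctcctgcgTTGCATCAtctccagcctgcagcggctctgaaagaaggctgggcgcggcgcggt
In the Slc7a11 window the motif begins at -66 and, on the other strand, at -47 from the start site. In the Slc7a7 window it begins at -141 and -1. The Slc1a4 window has 1 match, which begins at -4 on the other strand. Another Slc7a7 window, chr14:54417653-54417952, overlaps the one shown and holds the match that begins there at -1. A match describes these letters and is not evidence of binding. As the values below show, the 3 genes do not share a pattern over the groups: Slc7a11 was dimmest in mESC, Slc7a7 in embryo and Slc1a4 in adult cells.

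Of the heavy chains, only Slc3a2 was above the control level. Slc3a2 spans 8706882 to 8723369 of chromosome 19 by the authors' annotation, for which no build is named in the sources used here. Slc3a2 had log2 signals of 12.36, 12.55 and 12.49 in mESC, 11.37, 11.65 and 11.59 in embryo, and 11.26, 11.16 and 10.82 in adult cells. No array of one group overlapped another group, and the order was mESC, embryo, adult. It was lower in adult cells than in mESC (adult minus mESC -1.39, adjusted p = 9.27e-05). The embryo differences from mESC (-0.93, adjusted p = 0.00123) and from adult (0.46 ± 0.13 SE, adjusted p = 0.0493) passed the p threshold but not the minimum size. Slc3a1 had group means of 3.96, 3.97 and 4.13 in mESC, embryo and adult cells.

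Slc7a7 and Slc7a8, light chains that pair with Slc3a2, had the largest embryo against adult differences of the 59 genes. Slc7a7 encodes an exchanger that releases cationic amino acids in return for neutral ones, and its loss causes lysinuric protein intolerance in humans. Slc7a7 signals were 10.78, 11.25 and 10.89 in mESC, 5.26, 4.51 and 5.03 in embryo, and 8.59 on each of the 3 adult arrays. The groups did not overlap, and the embryo mean of 4.93 lay next to the control median of 4.84. Slc7a7 was 12.6-fold lower in embryo cells than in adult ones (-3.66 ± 0.19 SE, n = 3 arrays per group, adjusted p = 4.36e-05). It was 65.8-fold lower in embryo cells than in mESC (-6.04, adjusted p = 6.12e-07). Adult cells in turn were lower than mESC (-2.38, adjusted p = 4.73e-05). In the authors' deposited table the embryo against adult fold change of Slc7a7 is -12.17 with an adjusted p of 0.026.

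Slc7a8 encodes an exchanger of large and small neutral amino acids known from kidney and gut epithelium. Slc7a8 signals were 4.57, 5.62 and 5.98 in mESC, 6.45, 6.45 and 5.87 in embryo, and 10.47, 9.61 and 9.57 in adult cells. All adult arrays stood over 3 units above the highest array of the other groups, which overlapped each other. The gene was 12.4-fold lower in embryo cells than in adult ones (-3.63 ± 0.40 SE, adjusted p = 0.000865) and 22.5-fold higher in adult cells than in mESC (4.49, adjusted p = 7.41e-05). The 2 genes are neighbours on chromosome 14, 305 kb apart and both on the minus strand, Slc7a7 from 54369442 to 54417702 and Slc7a8 from 54722215 to 54781886. Digits in the column names of a second deposited summary were taken for a processing day, though no label calls them that. On the arrays of the second day so read, with 1 adult array among them, the Slc7a8 difference was -3.41 and was not called.

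Markers of several other cell types also differed between adult and embryo cells. Adult cells were higher than embryo cells in 11 of the 12 genes that mark macrophages and leukocytes, and the mean over that list was 8.82 to 9.03 on the adult arrays, 4.82 to 5.56 in embryo and 5.33 to 5.46 in mESC. The mean of the ameloblast genes was 12.04 to 14.7 in adult and 5.49 to 6.06 in embryo cells. That of mesenchyme was 9.64 to 12.0 and 6.77 to 8.43, and that of bone and dentin genes 7.49 to 9.79 and 4.65 to 4.85. Called lower in embryo cells were 4 of 7 ameloblast, 5 of 9 mesenchyme and 5 of 7 bone and dentin genes, against 2.83% of all clusters. Of 5 endothelium genes 1 was, and of 5 erythroid and 6 neuron and glia genes 0 were (0 and 3 at an unadjusted p under 0.05). Dividing-cell genes ran the other way, with all 8 called higher in embryo cells, against 3.59% of all clusters (means 11.8 to 12.2, and 9.58 to 10.0 in adult). Their part in the transporter results was not tested. Because each sample is a mixture of sorted cells, fewer cells of a type and less RNA per cell cannot be told apart. The mean of the dental epithelium genes was 11.9 to 12.6 in embryo, 11.7 to 12.5 in adult cells and 7.54 to 7.85 in mESC. All 8 were above the control median in every group, mESC included. Of these 8 genes, Cdh1 was lower in embryo cells (-1.10, adjusted p = 0.0336) and 5 had an unadjusted p under 0.05. Of the stem cell markers, all 8 were above the control median in mESC, with a mean of 12.3 to 12.4. In embryo (mean 4.74 to 5.05) and in adult cells (5.04 to 5.24), 3 of the 8 were above it.

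**Figure D2:**
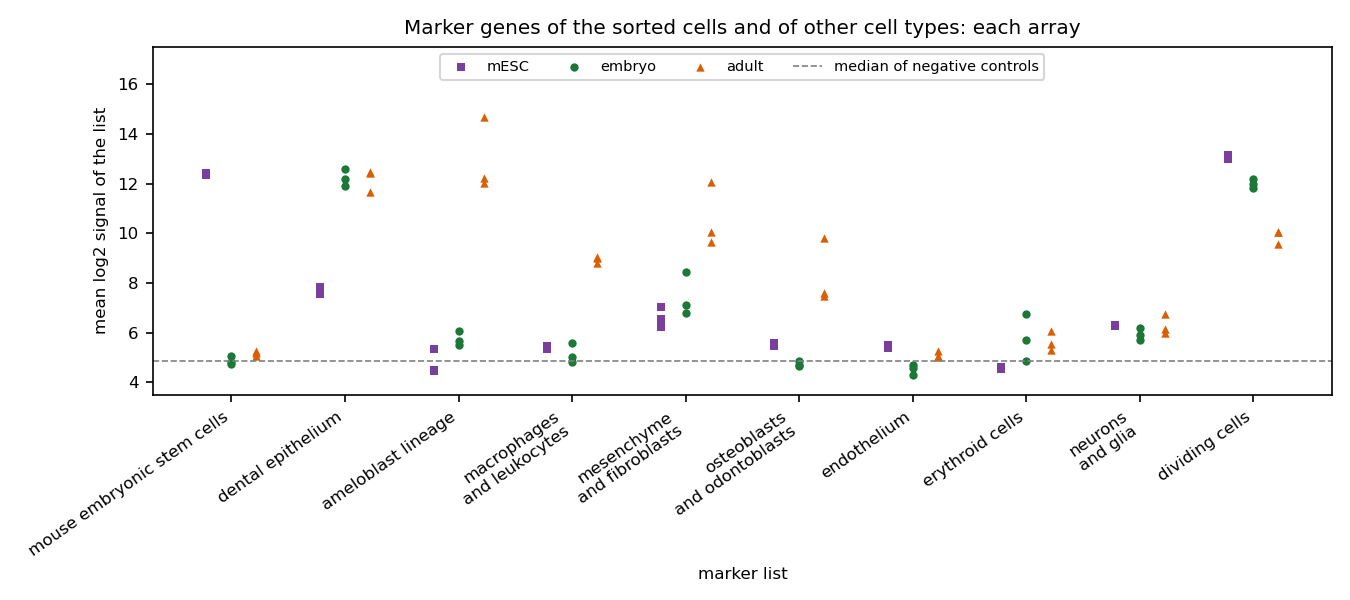
Mean log2 signal of each marker list on each array (mESC squares, embryo circles, adult triangles; dashed line, negative-control median). The macrophage list is at 8.82 to 9.03 in adult and at most 5.56 elsewhere, and 1 adult array, replicate 1, stands above the other adult arrays for the ameloblast, mesenchyme and bone lists.

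Slc7a6 encodes the close relative of Slc7a7 with the same exchange activity. Slc7a6 signals were 9.43 on each of the 3 mESC arrays, 10.19, 9.80 and 9.88 in embryo, and 8.35, 8.91 and 8.81 in adult cells. The groups did not overlap, with embryo highest and adult lowest. It exceeded the adult level in embryo cells by 1.27 ± 0.16 SE (adjusted p = 0.00144). Its differences from mESC passed the p threshold but not the minimum size (embryo minus mESC 0.53, adjusted p = 0.0405, and adult minus mESC -0.74, adjusted p = 0.00709).

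Slc7a5, the main carrier of leucine and other large neutral amino acids in growing cells, had signals of 12.50, 12.57 and 12.74 in mESC, 11.39, 11.97 and 11.83 in embryo, and 9.29, 10.33 and 11.22 in adult cells. The groups did not overlap, and the adult arrays spanned almost 2 units. Slc7a5 was lower in adult cells than in mESC (-2.32, adjusted p = 0.00351). The embryo minus adult difference of 1.45 ± 0.43 SE (95% interval 0.46 to 2.44) missed the threshold at an adjusted p of 0.0587, and without adult replicate 3 it was 1.92 and called (adjusted p = 0.00836). Split by processing day it was 2.16 on the first and 0.39 on the second.

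Slc7a11, the light chain that brings in cystine for glutathione synthesis in return for glutamate, had signals of 4.25, 4.44 and 4.24 in mESC, 5.04, 6.59 and 7.55 in embryo, and 5.04, 5.04 and 5.53 in adult cells. The mESC arrays were all below the control median and below every dental array, while embryo and adult arrays overlapped. Slc7a11 was higher in embryo cells than in mESC (2.08 ± 0.54 SE, adjusted p = 0.0241), a call lost without embryo replicate 2 (1.99, adjusted p = 0.0749) and without any 1 of the mESC arrays (adjusted p = 0.0609 to 0.0678). The embryo minus adult difference was 1.19 with an adjusted p of 0.214, and without embryo replicate 1, the dimmest embryo array, it was 1.87 and called (adjusted p = 0.00746). The remaining light chains Slc7a9, Slc7a12, Slc7a13 and Slc7a15 were at or under the control median, and Slc7a10, which exchanges small neutral amino acids, had means of 4.91, 5.36 and 5.01 and was not called.

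The cationic transporters, which take up arginine and lysine, each had a different group on top. Slc7a3 signals were 12.06, 11.98 and 12.03 in mESC, 9.17, 9.64 and 9.06 in embryo, and 7.42, 8.0 and 7.84 in adult cells. The 3 groups did not overlap and fell from mESC to embryo to adult. Slc7a3 was higher in embryo than in adult cells (1.54 ± 0.18 SE, adjusted p = 0.00126), and lower than in mESC in both embryo (-2.73, adjusted p = 3.12e-05) and adult cells (-4.27, or 19.3-fold, adjusted p = 2.02e-06). The gene lies on chromosome X from 101079210 to 101086020.

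Slc7a1, the widely expressed member, was brightest in embryo cells, with 9.59, 9.53 and 9.20 in mESC, 10.36, 10.74 and 11.23 in embryo, and 8.69, 8.94 and 9.54 in adult cells. Every embryo array was above every other array, and mESC and adult arrays overlapped. Slc7a1 was higher in embryo than in adult cells (1.72 ± 0.27 SE, adjusted p = 0.00449) and than in mESC (1.34, adjusted p = 0.00853). Slc7a2, known for arginine uptake in liver and in activated macrophages, was brightest in adult cells, with 5.52, 5.93 and 5.70 in mESC, 6.91, 6.85 and 6.80 in embryo, and 7.89, 7.13 and 7.41 in adult cells. Its dental arrays were all above the mESC arrays, and it was higher than in mESC in both embryo (1.14, adjusted p = 0.00299) and adult cells (1.76, adjusted p = 0.000199). The embryo minus adult difference of Slc7a2 was -0.62 (adjusted p = 0.064), without overlap of the arrays. Slc7a4, a relative with no settled substrate, had means of 5.71, 5.95 and 6.16 in mESC, embryo and adult cells, and Slc7a14 was under the control median.

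In the Slc1 family, Slc1a3, Slc1a4 and Slc1a5 had their highest mean in mESC and their lowest in adult cells, and Slc1a1 had its highest in adult cells. Slc1a5, which exchanges glutamine and other neutral amino acids, had signals of 10.89, 10.91 and 10.81 in mESC, 9.90, 9.91 and 9.68 in embryo, and 8.56, 8.46 and 8.88 in adult cells. The groups were well apart, in the order mESC, embryo, adult. Slc1a5 was higher in embryo than in adult cells (1.20 ± 0.12 SE, adjusted p = 0.000501), and lower than in mESC in both embryo (-1.04, adjusted p = 0.000431) and adult cells (-2.24, adjusted p = 5.1e-06). The embryo against mESC difference lies just past the minimum size and was under it without embryo replicate 3 (-0.965) and with the arrays centred on their medians (-0.903).

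Slc1a4, which exchanges serine, alanine and cysteine, had signals of 8.48, 8.37 and 7.71 in mESC, 7.97, 7.76 and 7.69 in embryo, and 6.18, 7.16 and 6.81 in adult cells. Embryo and mESC arrays overlapped, and the adult arrays were below both. It was lower in adult cells than in mESC (-1.47, adjusted p = 0.00418). The higher level in embryo than in adult cells (1.09 ± 0.28 SE, adjusted p = 0.0345) was not called in 14 of 24 alternative settings, among them the fits without adult replicate 1 (0.82, adjusted p = 0.0719), without adult replicate 3 (adjusted p = 0.0731), without mESC replicate 2 (adjusted p = 0.0578) and without any 1 of the embryo arrays (adjusted p = 0.0777 to 0.0955).

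Slc1a1, a glutamate and cysteine carrier of epithelia and neurons, had signals of 4.76, 4.58 and 4.86 in mESC, 4.33, 3.94 and 4.14 in embryo, and 8.04, 6.12 and 5.69 in adult cells. The adult arrays lay above the others, replicate 1 by far, and the embryo and mESC means were under the control median. Slc1a1 was lower in embryo cells than in adult ones (-2.48 ± 0.53 SE, adjusted p = 0.0167) and higher in adult cells than in mESC (1.88, adjusted p = 0.0258). Without adult replicate 1 these differences were -1.77 and 1.17, and without embryo replicate 2 or 3 the first had an adjusted p of 0.0623 or 0.0542. Without mESC replicate 1, 2 or 3 the second had an adjusted p of 0.0663, 0.0779 or 0.0595. With processing day as a block the second was 1.52 and not called (adjusted p = 0.14), and on the second day alone it was 0.957. Split by processing day, embryo minus adult was -3.14 and -1.46. Slc1a3, a glutamate carrier best known from glia, was brightest in mESC (6.25, 5.72 and 5.90) and close to the control median in embryo (4.99, 4.47 and 4.93) and adult cells (4.84, 4.58 and 4.44). Dental arrays of Slc1a3 overlapped each other and not those of mESC (embryo minus mESC -1.16, adjusted p = 0.00276, and adult minus mESC -1.34, adjusted p = 0.00088). Without embryo replicate 2 the first of these was -0.997, just under the minimum size. Slc1a6 and Slc1a7 were at or under the control median.

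Of the 10 Slc38 genes, 1 was called higher and 1 lower in embryo than in adult cells, where 3.59% and 2.83% of all clusters were. Slc38a1, a sodium-driven importer of glutamine and other small neutral amino acids, had signals of 11.13, 10.95 and 11.03 in mESC, 11.53, 11.52 and 11.56 in embryo, and 9.22, 9.70 and 10.62 in adult cells. The embryo arrays agreed to 0.04 and were highest, and the adult arrays were lowest and spread over 1.4 units. Slc38a1 was higher in embryo than in adult cells (1.69 ± 0.30 SE, adjusted p = 0.00743), with 2.06 on the first and 0.925 on the second processing day. It was lower in adult cells than in mESC (-1.19, adjusted p = 0.0162), but this was not called without adult replicate 1 (-0.877, under the minimum size), without adult replicate 2 (adjusted p = 0.0539) or without mESC replicate 1 (adjusted p = 0.0529), and within the second processing day it was -0.417. With processing day as a block it was -0.795 (adjusted p = 0.0931).

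Slc38a3, a glutamine, histidine and asparagine carrier of liver, kidney and brain, had signals of 7.50, 7.28 and 7.55 in mESC, 6.99, 7.61 and 7.51 in embryo, and 10.43, 8.14 and 9.33 in adult cells. Adult arrays were above all others but 2.3 units apart, and the other groups overlapped. It was lower in embryo cells than in adult ones (-1.93 ± 0.50 SE, adjusted p = 0.0362) and higher in adult cells than in mESC (1.86, adjusted p = 0.0213). The first call was lost in 13 of 24 settings, including the fits without any 1 of the embryo arrays (adjusted p = 0.0815 to 0.102), any 1 of the mESC arrays (adjusted p = 0.0625 to 0.0651) or adult replicate 3 (adjusted p = 0.0918), and the second without adult replicate 3 (adjusted p = 0.0576) or any 1 of the mESC arrays (adjusted p = 0.0524 to 0.0681). With processing day as a block neither was called (-1.88, adjusted p = 0.0796, and 1.75, adjusted p = 0.0951).

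Slc38a2, the system A carrier that cells raise when amino acids are scarce, lies 44.5 kb from Slc38a1 on chromosome 15 and was bright in all groups, with means of 11.44, 11.63 and 11.17 in mESC, embryo and adult cells. Its embryo minus adult difference was 0.46 (95% interval -0.05 to 0.97, adjusted p = 0.241). Slc38a7, a lysosomal glutamine carrier, differed by -0.54 (adjusted p = 0.0164), past the p threshold but under the minimum size. Slc38a9, the lysosomal arginine sensor that signals to mTORC1, had means of 6.42, 6.42 and 6.54 and a difference of -0.12 (95% interval -0.41 to 0.17). Slc38a6 and Slc38a10 were above the control median in all groups and not called, and Slc38a5, Slc38a8 and Slc38a11 were under it.

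Slc36a4 gave the largest difference of the members that were higher in both dental groups than in mESC. It encodes a carrier of proline and tryptophan and lies on chromosome 9 from 15709738 to 15743361. Slc36a4 signals were 6.12, 5.93 and 6.27 in mESC, 11.10, 10.78 and 11.45 in embryo, and 10.12, 10.41 and 10.77 in adult cells. All 6 dental arrays were over 3.8 units above the mESC arrays, and the lowest embryo array was 0.01 above the highest adult array. The gene was 32.1-fold higher in embryo cells than in mESC (5.0 ± 0.21 SE, adjusted p = 2.66e-06) and 20.1-fold higher in adult cells (4.33, adjusted p = 3.72e-06). Embryo minus adult was 0.68 (95% interval 0.19 to 1.17, adjusted p = 0.0728). Slc36a1, the proton-driven carrier of small amino acids in lysosomes, was near 6 in all groups, and Slc36a2 and Slc36a3, its neighbours on chromosome 11, were under the control median.

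Slc43a3 was also higher in both dental groups than in mESC. It belongs to the family by sequence and is known to carry purine nucleobases. Slc43a3 signals were 7.82, 7.85 and 8.06 in mESC, 10.30, 11.08 and 10.23 in embryo, and 9.98, 8.94 and 9.52 in adult cells. The groups did not overlap, with embryo highest. It was higher than in mESC in embryo (2.63, adjusted p = 0.000479) and in adult cells (1.57, adjusted p = 0.00431), and the embryo minus adult difference was 1.06 ± 0.30 SE (95% interval 0.36 to 1.75, adjusted p = 0.052), called without adult replicate 1 (1.31, adjusted p = 0.0259). Slc43a1, a facilitator of branched-chain amino acids 73 kb away on chromosome 2, had overlapping arrays and an embryo minus adult difference of 0.85 (adjusted p = 0.162). Without adult replicate 1 Slc43a1 was called higher in embryo than in adult (1.22, adjusted p = 0.0257) and lower in adult cells than in mESC (-1.29, adjusted p = 0.00961). Slc43a2, a facilitator with like substrates, was -0.42 (adjusted p = 0.0138), under the minimum size.

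Of the 18 Slc6 genes none was called by limma in any comparison, with 3, 3 and 5 at an unadjusted p under 0.05 for embryo against adult, embryo against mESC and adult against mESC. Slc6a6 (embryo against adult and against mESC) and Slc6a17 (both dental groups against mESC) passed the p threshold without the minimum size. Slc6a6, the taurine carrier, had means of 11.55, 12.16 and 11.57 in mESC, embryo and adult cells, and embryo cells were above adult by 0.58 (adjusted p = 0.0262) and above mESC by 0.61 (adjusted p = 0.0141). Slc6a8, the creatine carrier, was at 8.59, 8.63 and 8.68, with an embryo minus adult interval of -0.30 to 0.20. Slc6a9, the glycine carrier GlyT1, was at 7.09, 7.20 and 7.34 (interval -0.35 to 0.08). Slc6a15, which carries branched-chain amino acids and proline, had 6.36, 6.49 and 5.36 and an embryo minus adult difference of 1.13 (95% interval 0.27 to 1.98, adjusted p = 0.0844). Without adult replicate 1 Slc6a15 was called in both adult comparisons (1.57, adjusted p = 0.00415, and adult minus mESC -1.44, adjusted p = 0.00219). Slc6a17, a neutral amino acid carrier of synaptic vesicles, was at 5.36, 5.98 and 6.07 (adult minus mESC 0.72, adjusted p = 0.0158).

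**Figure D3:**
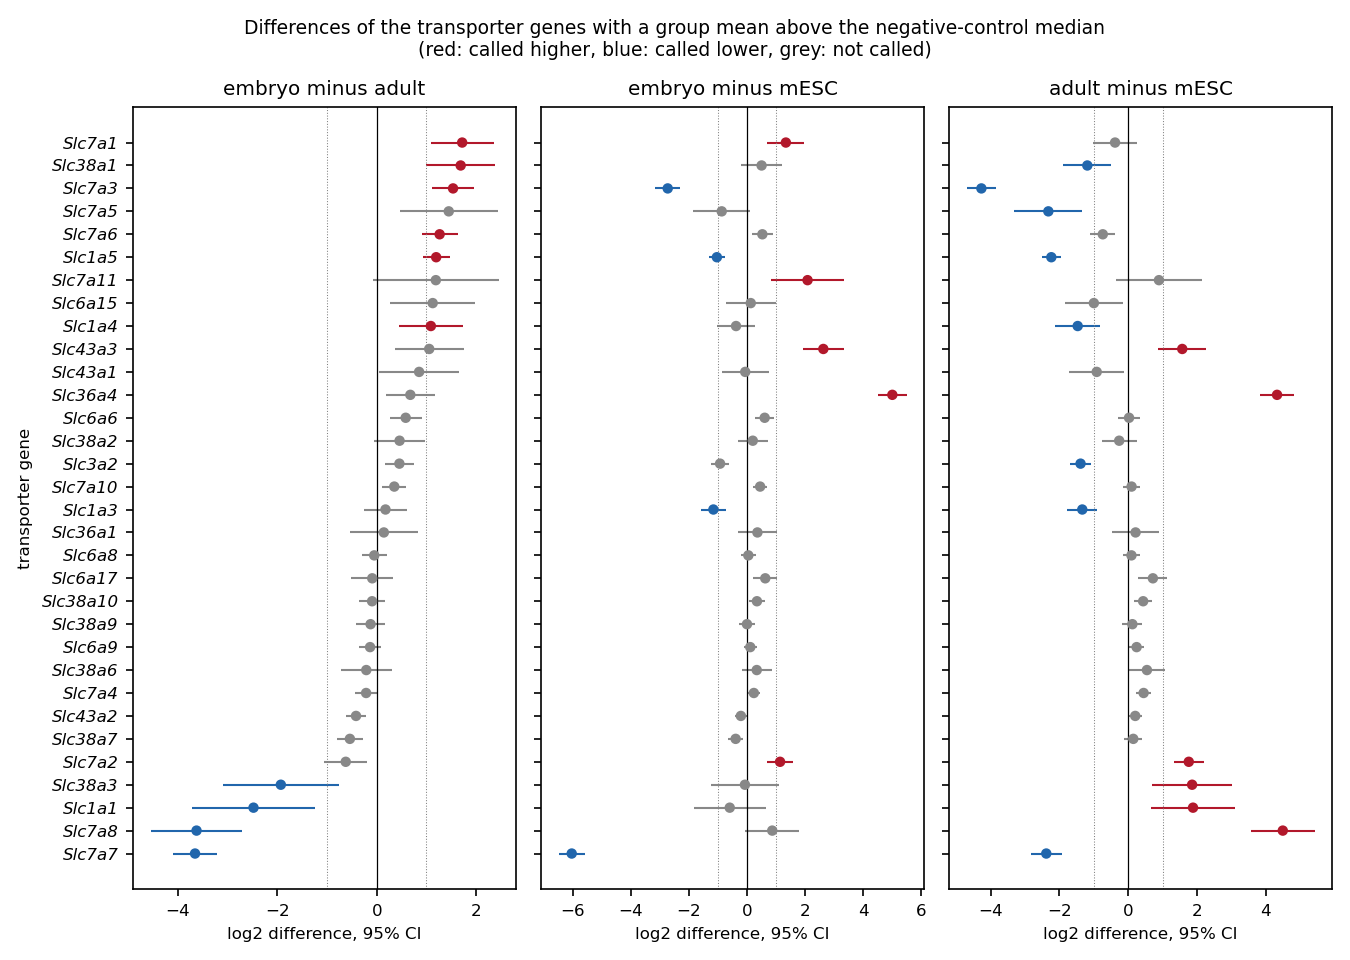
Log2 differences with 95% intervals for the 32 transporter genes whose mean lay above the negative-control median in some group, in the 3 comparisons, ordered by embryo minus adult. Dotted lines mark the minimum size of 1 in either direction. Red and blue points are called higher and lower, and the longest distances from 0 are those of Slc7a7 (-6.04, embryo minus mESC), Slc36a4 (5.0) and Slc7a8 (4.49, adult minus mESC).

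Adult replicate 1 stood apart from the other arrays. Its standard deviation around the group mean was 0.264 over all clusters and 0.389 over the 59 genes, against 0.151 to 0.202 and 0.118 to 0.264 on the other 8 arrays, and its ameloblast, mesenchyme and bone lists were the highest. For 8 of the 10 genes called between embryo and adult, it was the adult array farthest from the embryo mean. Without it, Slc1a4 was the 1 of the 10 that lost its call, and the 10 differences were 0.707 to 1.0 times those with all arrays. The digits taken for a processing day also divide the dental groups. By them, 2 adult and 1 embryo array fell on the first day. The second had 1 adult and 2 embryo arrays with the 3 mESC arrays. Within each day all 10 genes kept their direction. On the second day alone, Slc7a1 (1.26), Slc38a1 (0.925), Slc1a5 (0.91) and Slc1a4 (1.02) were no longer called higher. Slc7a8 (-3.41) was no longer called lower there.

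Genes of amino acid use were set beside the transporters, counted by the same threshold. Of all clusters, 3.59% were called higher and 2.83% lower for embryo against adult. The shares were 4.87% and 6.09% for embryo against mESC, and 6.86% and 10.3% for adult against mESC. A list with few called genes is not set apart from all clusters by that count. The 11 genes of serine, glycine and one-carbon synthesis had a median embryo minus adult difference of 1.29. Of these, 7 were higher in embryo cells and none was lower, led by Shmt2 (2.56 ± 0.20 SE, adjusted p = 0.000168) and Shmt1 (1.68), which interconvert serine and glycine, and by the folate enzymes Mthfd1 (1.48) and Mthfd2 (1.42). Against mESC the same list had 6 lower in embryo and 9 lower in adult cells, with the glycine-cleaving Gldc at -6.04 and -7.30 and the serine-making Psat1 at -3.76 and -4.54. Of 20 cytosolic aminoacyl-tRNA synthetases, which charge tRNAs with amino acids, 6 were higher in embryo than in adult cells (median 0.86), and 10 in embryo and 18 in adult cells were lower than in mESC (medians -1.12 and -2.03). The largest embryo minus adult differences of synthetases were those of Farsa (1.53), Mars (1.29), Iars (1.26) and Kars (1.25).

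The 16 genes of the amino acid response and Atf4 targets had 1 higher (Cth, which makes cysteine, 1.15, adjusted p = 0.0218) and 1 lower (Vldlr, a lipoprotein receptor, -2.57, adjusted p = 0.000488) in embryo than in adult cells. Against mESC, 8 were lower in embryo cells (6.09% of all clusters) and 10 lower and 2 higher in adult cells (10.3% and 6.86%). Asns, which makes asparagine, had 13.71, 13.59 and 13.77 in mESC, 10.67, 10.67 and 10.43 in embryo, and 10.15, 9.62 and 9.71 in adult cells. Chac1, which degrades glutathione, had means of 7.74, 5.08 and 5.35. The 2 genes of the list that were higher in adult cells than in mESC were Vldlr (2.40) and Atf3 (2.01), a stress-response transcription factor. By group means, 8 of the 32 transporter genes above the control median were highest in mESC (Slc1a3, Slc1a4, Slc1a5, Slc3a2, Slc43a1, Slc7a3, Slc7a5 and Slc7a7), as Asns and Chac1 were. Slc7a11 was at its lowest in mESC, and Slc38a2 was highest in embryo cells.

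Of 21 measured genes of mTORC1 and amino acid sensing, Rragd, a Rag GTPase, was higher (1.37, adjusted p = 0.00683) and Sesn1, a sestrin, lower (-1.06, adjusted p = 0.0176). Against mESC 1 of them, Rragb, was lower in embryo cells (-1.52) and in adult cells (-2.29), and Sesn1 was higher in adult cells (1.05). Of 13 genes of glutamine and glutamate metabolism, Glul, which makes glutamine, was lower by 1.16 (-1.16, adjusted p = 0.000508). In that list 1 was higher and 6 lower in embryo cells than in mESC, and 1 higher and 7 lower in adult cells, led by the transaminase genes Gpt2 (-2.99 and -3.06) and Got1 (-2.09 and -2.89). Of 10 genes of glutathione and cystine use, 0 were called by limma between embryo and adult cells (6 at an unadjusted p under 0.05), and 1 was higher and 4 lower in embryo cells and 3 lower in adult cells than in mESC, among them Gclc, the enzyme that joins cysteine to glutamate (-1.91 and -2.10). Of 11 genes of branched-chain and arginine catabolism, 0 were called by limma between embryo and adult cells (3 at an unadjusted p under 0.05) and 5 were lower than in mESC in each dental group, with the arginine-making Ass1 at -4.17 and -5.12. Of 18 other amino acid and peptide transporters, 1, the lysosomal peptide carrier Slc15a3, was lower in embryo cells than in adult ones (-1.14, adjusted p = 0.00641). Against mESC 2 of them were lower in embryo (6.09% of all clusters), and 3 higher and 3 lower in adult cells (6.86% and 10.3%).

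**Figure D4:**
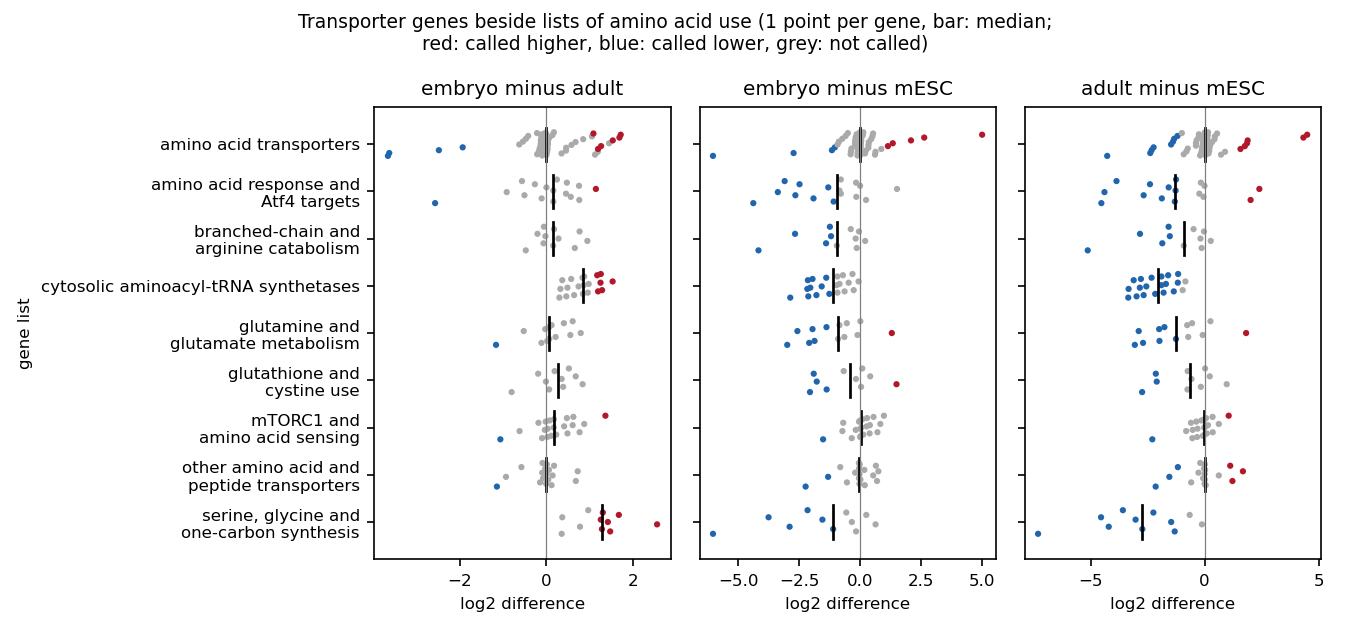
Log2 differences of single genes in the 59 transporters and in 8 lists of amino acid use, in the 3 comparisons, with the list median as a black bar. The medians of the transporters are at 0.0133 or less in size, but 27 of the 59 had every group mean at or under the negative-control median. Among the 32 members left without dim clusters, the median was 0.265 for embryo minus adult and 0.1617 for embryo minus mESC. Medians of the serine, glycine and one-carbon list are 1.29, -1.11 and -2.73, and those of the tRNA synthetases 0.86, -1.12 and -2.03.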

How the data were processed

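Total RNA of 9 samples was measured on Affymetrix whole-transcript mouse arrays, and each group follows the title of its sample. The values that the authors deposited are normalised log2 signals, 1 for each transcript cluster and array. Per the submitters' processing notes, Affymetrix Expression Console, RMA and Transcriptome Analysis Console were used, with no version or role stated, and table names point to the form SST-RMA. Because RMA sets the arrays to a common scale, a shift of most genes together is hidden, and differences of dim genes are compressed. No build is named for the coordinates in the sources used here. Per the file headers the authors also deposited an analysis of variance with its p-values and false discovery rates, a signed linear fold change (recorded here as a score) and standard deviations, also as a score, which were not used. The fold changes and rates served as an alternative.

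Groups were compared in R 4.3.3 with limma 3.58.1, by lmFit and by eBayes without a trend, in 1 fit of 3 group means over 9 arrays and the 39601 clusters with a gene symbol. The Benjamini-Hochberg adjustment ran over all of them in each comparison, so each adjusted p printed is limma's, and ± SE is the standard error of that fit. On simulated data for embryo against adult, 73 of 100 genes changed by 1.5 log2 units and 91 of 100 changed by 3 were recovered among 39601 genes, with 1 false call. The changed genes came from clusters above the median mean signal, with independent normal noise, and no other gene differed between groups. These rates therefore do not carry over to the dim members or to an outlying array. Array values are printed for Slc3a2 and for up to 8 called members per comparison and direction, by size of the difference, if the higher mean exceeds the negative-control median. Slc7a5, Slc7a11 and further members are named with their levels, and not every member is reported singly here. The member genes and the gene lists were chosen with earlier results of these data known.

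The column names of a second deposited summary with the same log2 values (9 of 9 columns identical to within 0.006) hold digits that were taken for a processing day, but no sample, so day enters only alternatives. There 2 embryo columns, 1 per day, share a name, so they may be 1 sample run again, although the titles number 3 embryo replicates. If so, the embryo arrays are not all independent samples. The 2 columns were averaged in an alternative, where Slc1a4 (adjusted p = 0.0918) and Slc38a3 (adjusted p = 0.0877) were not called between embryo and adult. The titles number the replicates without saying that equal numbers pair samples. Deviations of same-numbered arrays from their group means correlated at 0.0005 to 0.154 for embryo and adult and at -0.0801 to 0.0376 otherwise. With 3 arrays per group such correlations cannot exclude a pairing. Precision is limited by 3 arrays per group.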

Additional observations from a re-analysis of the deposited data

How the results depend on the processing

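Each result was recomputed under 24 alternatives, and no called difference changed direction. Of the called transporter genes, 1 of 10 (Slc7a7) kept its call in all 24 for embryo against adult, 5 of 9 against mESC for embryo cells and 8 of 14 for adult cells. For embryo against adult, the fit of only these 2 groups left 2 genes lower, the deposited values of the authors gave 0 genes higher (6 by their unadjusted p) and 2 lower among 594 clusters, and the arrays of the second processing day, chosen after seeing the data, gave 3 higher among 1530 clusters. For embryo against mESC the authors' deposited tables gave 3 higher and 2 lower, and for adult against mESC 5 lower. With no minimum difference, embryo against mESC had 9 genes higher and 7 lower, and the clusters called were 6314, 10966 and 14425 for embryo against adult, embryo against mESC and adult against mESC.

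Leaving out 1 array gave 5 to 8 genes higher and 2 to 4 lower for embryo against adult, 4 to 5 and 3 to 4 for embryo against mESC, and 4 to 6 and 7 to 9 for adult against mESC. The low of 2 came without embryo replicate 2 and without embryo replicate 3, each of which lost Slc1a1 and Slc38a3. For embryo against adult, the fit without the mESC arrays lost Slc1a1 (adjusted p = 0.0728), Slc1a4 (adjusted p = 0.0612) and Slc38a3 (adjusted p = 0.119). The median difference over the genes, in the same order of comparisons, was 0.07, 0.1333 and 0.0767 with arrays centred on their medians, and 0.265, 0.1617 and 0.1083 among the 32 members left when dim clusters were dropped. Quantile normalisation gave 0.0863 for embryo against mESC and 0.0974 for adult against mESC. Median centring shifted the median of all clusters by 0.1366 for embryo against mESC, and the higher share of all clusters called went from 44.4% to 55.8% there. For embryo against adult that share was 55.9%, with 46% under quantile normalisation, 62.3% under median centring and 48.4% on the second day alone. With the replicate number as a block, genes higher and lower were 6 and 3, 5 and 4, and 6 and 9, with 2488, 4260 and 6752 clusters called. Where a call was lost, the cause was not tested. Signals at the negative-control level bound what can be seen of 27 genes.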
